A study of Anoectochilus roxburghii with 9 samples.

Results

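In leaves of Anoectochilus roxburghii, a medicinal orchid, 208 assembled genes changed the transcript length implied by their reads while their read number stayed close to that of control leaves. They were drawn from 85512 assembled genes. The members were chosen from the count and the FPKM (the read number scaled by transcript length and sequencing depth) that the authors deposited for every gene and library. In all 9 libraries a gene had to reach a count of 100 and an FPKM of 5, which left 11468 genes measured for length. For each of these, L was the log2 of count over FPKM, minus the library's median over the same genes. A gene became a member when its mean L differed from that of empty vector leaves by at least 1.4-fold (0.49 on the log2 scale) in either overexpression group. Its mean CPM (the count scaled to a fixed library total) also had to lie within 1.5-fold of the control in both overexpression groups, and under 1000 in the control.

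The study comprised 3 groups of 3 leaf libraries, all from wild-type plants under transient overexpression and taken at day 3. The controls carried an empty vector (EV). The other groups carried an ArPHR2 or an ArPHR4 construct, and a deposited list of names gives all 3 constructs with a YFP tag (PHB-YFP, ArPHR2-YFP and ArPHR4-YFP). RNA was measured by mRNA sequencing. The promoter, the share of leaf cells that took up a construct and any pooling of plants are not stated in the labels, so the spread between libraries may be technical. In whole leaves, fewer cells of a type and less RNA per cell cannot be told apart.

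PHR proteins belong to the MYB family of DNA-binding regulators, and in Arabidopsis and rice they switch on genes of the phosphate starvation response. A plant gene can give transcripts of unequal length through other start sites, other splice forms, retained introns or other polyadenylation sites. A count adds up the reads of all transcripts of a gene. FPKM divides by length, so the ratio of both rises when the longer transcripts, or transcripts given a longer effective length, take a larger share of the reads. By its arithmetic the ratio does not depend on how strongly the gene is expressed, but its spread between libraries can differ with the number of reads. The IDs come from an assembly without a genome and are not paired with names, functions or positions in the files, so the proteins that the members encode are not described here, and neither markers of leaf cells nor the transcripts of the constructs were looked up.

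Total counts were 16032716 to 17244083 per library. Within a group, libraries differed by 2.12 to 3.71 times the counting noise (median squared difference over the measured genes), so none looked like a second copy of another. The median implied length of the measured genes, before centring, was 1243 to 1245 bases in EV, 1232 to 1241 in ArPHR2 and 1200 to 1210 in ArPHR4. Centring sets these library medians equal, but the median over genes of the shift from EV stayed at 0.036 in ArPHR2 and 0.054 in ArPHR4 (log2). Lengths below are given on a common median of 1234 bases. They are lengths implied by the deposited values, not lengths of assembled transcripts: some member means were shorter than any usual mRNA. Rounding of the deposited values can move L by at most 0.0086 at the minimum count and FPKM.

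The length threshold was passed by 303 of the 11468 measured genes (2.64%), and 208 of them met the limits on level. Of the 95 left out, 19 had moved too far in level in ArPHR2 alone, 34 in ArPHR4 alone and 42 in both. The limits on level held for 71.6% of all measured genes and for 68.6% of those past the length threshold. The member nearest to the length limit had a shift of 1.4008-fold, and the gene nearest outside it 1.3996-fold. On level, the nearest gene inside was at 1.497-fold and the nearest outside at 1.505-fold. Of the members, 72 lay within 0.05 log2 units of the length threshold, and 12 passed 2-fold (7 longer, 5 shorter). The shifts themselves chose the members, so their size and direction below are a description without a test.

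Members moved in both directions, in a balance that depended on the threshold. In ArPHR4 against EV, 164 members passed the threshold (2.09% of all measured genes did), 114 shorter and 50 longer, where 1.35% and 0.741% of all measured genes were. In ArPHR2 against EV, 103 members passed it (1.42% of all measured genes did), 52 shorter and 51 longer, where 0.706% and 0.715% were. At a threshold of 1.5-fold the ArPHR4 split was 42 shorter and 33 longer. Nothing is read from these counts, since the rule fixes them. The median shift over all measured genes was 0.036 in ArPHR2 and 0.054 in ArPHR4 on this scale. With that median set to 0, which chose 224 genes, the split became 150 shorter and 38 longer in ArPHR4, and 66 shorter and 38 longer in ArPHR2. Against the same EV libraries, 59 members passed the threshold under both constructs, 44 under ArPHR2 alone and 105 under ArPHR4 alone. The 59 consisted of 33 shorter and 26 longer in both.

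**Figure D1:**
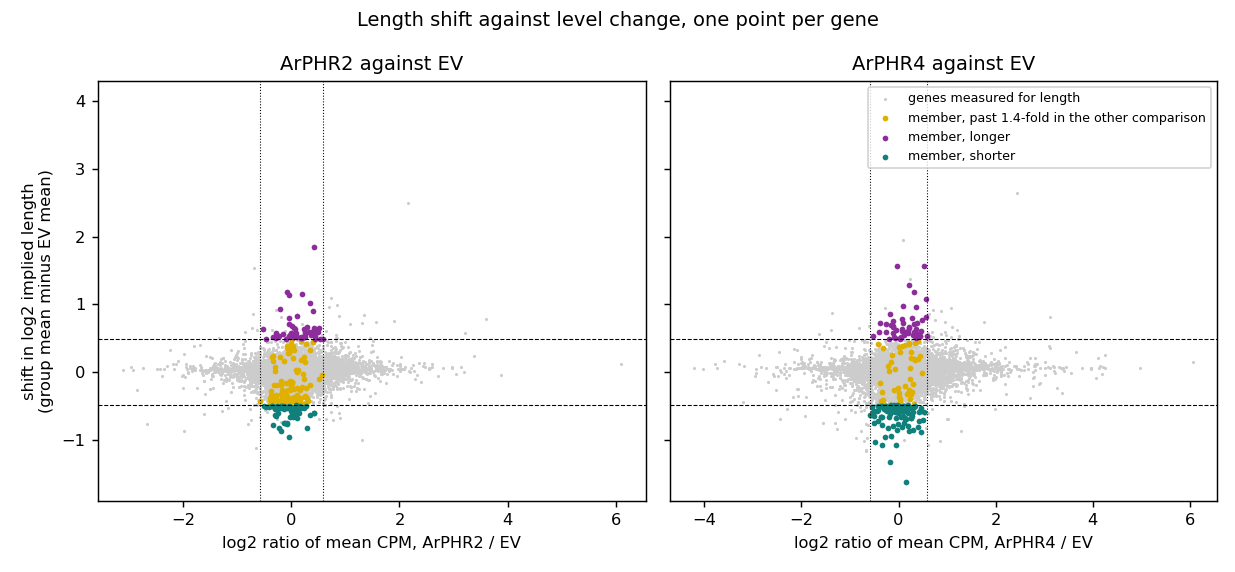
Length shift (group mean of L minus the EV mean, log2) against the log2 ratio of mean CPM for the 11468 measured genes, with ArPHR2 on the left and ArPHR4 on the right. Dashed lines mark 1.4-fold in length and dotted lines 1.5-fold in level. Members past the length threshold in the panel's comparison are purple (longer) or green (shorter), and members past it in the other comparison alone are yellow. The right panel holds 114 green and 50 purple points, the left 52 and 51.

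The classes had similar median shifts past the threshold. The 33 members shorter under both constructs had a median shift of -0.60 in ArPHR2 and -0.67 in ArPHR4 on the log2 scale of L. The 26 longer under both had medians of 0.64 and 0.72. The 81 members shorter past the threshold in ArPHR4 alone had a median of -0.55 there and -0.37 in ArPHR2, and the 24 longer in ArPHR4 alone had 0.59 and 0.31. Members past the threshold in ArPHR2 alone had medians of -0.53 (19 shorter) and 0.53 (25 longer) there, and of -0.32 and 0.24 in ArPHR4. In bases, the median over all 133 shorter members was 1674 in EV, 1256 in ArPHR2 and 1135 in ArPHR4. Over the 75 longer members it was 487 in EV, 719 in ArPHR2 and 728 in ArPHR4. Both construct groups thus stand on the same side of EV in each class median, and the shared EV libraries enter every one of these values.

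**Figure D2:**
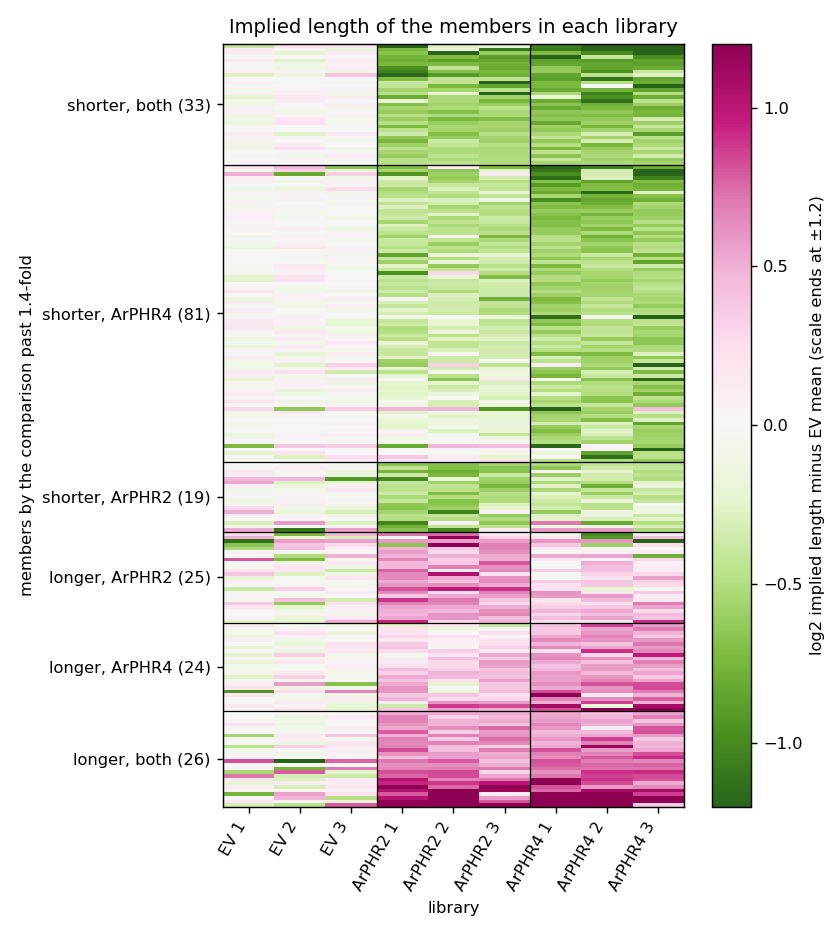
Log2 implied length of each of the 208 members (rows) in each of the 9 libraries (columns), relative to the mean of the 3 EV libraries of that gene. Rows are ordered by the comparison in which the member passed 1.4-fold, with the number of members in brackets. The scale ends at 1.2 log2 units on either side. Single cells that differ from their neighbours of the same group show members whose own libraries disagree.

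Among members with a longer length, TRINITY_DN13150_c0_g1 had the second largest shift in ArPHR4. Its implied length was 923, 807 and 747 bases in the EV libraries, 1855, 2237 and 1431 bases in ArPHR2 and 2597, 2413 and 2286 bases in ArPHR4. All 6 construct libraries lay above all EV libraries, and those of ArPHR4 above those of ArPHR2. The shift was 1.14 in ArPHR2 and 1.56 in ArPHR4 on the log2 scale. Its read number was 20.7 ± 0.185 CPM in EV, 20.2 ± 1.29 in ArPHR2 and 20.3 ± 2.21 in ArPHR4 leaves (SD, n = 3). The FPKM of the same gene was 25.1 ± 2.86 in EV, 11.3 ± 2.46 in ArPHR2 and 8.53 ± 0.569 in ArPHR4 leaves (SD, n = 3), so its level per length was lower in every construct library than in any EV library.

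By a narrow margin over TRINITY_DN13150_c0_g1 (1.562, log2), the largest shift toward a longer length in ArPHR4 was that of TRINITY_DN1648_c0_g1 (1.565). It implied 228, 318 and 162 bases in EV, 460, 639 and 338 in ArPHR2 and 731, 601 and 691 in ArPHR4. The ArPHR4 libraries lay clear of EV, and the lowest ArPHR2 library lay just above the highest of EV. The shift was 1.03 in ArPHR2 and 1.56 in ArPHR4. Its component in the assembly holds 2 other IDs, with which it can share reads, and its count was low, 171 to 296 per library. Its level rose in ArPHR4 within the limit, with a log2 fold change of 0.43 ± 0.13 (SE, edgeR adjusted p = 0.00483). The rule limited this level contrast, so the p-value is a description.

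In ArPHR2 the largest shift was that of TRINITY_DN9979_c0_g2, another short gene with low counts (116 to 179 per library). It implied 133, 119 and 283 bases in EV, 686, 681 and 445 in ArPHR2, and 661, 382 and 211 in ArPHR4. The ArPHR2 libraries did not overlap EV, but the third ArPHR4 library fell below the third EV library. Mean lengths were 178 ± 90.8, 604 ± 137 and 418 ± 227 bases (SD, n = 3). TRINITY_DN326_c0_g1 was the second in ArPHR2. It implied 1009, 747 and 1052 bases in EV, 2293, 1565 and 2603 in ArPHR2, and 1620, 1388 and 1435 in ArPHR4. No construct library of this gene overlapped EV, and the shift was 1.19 in ArPHR2 and 0.67 in ArPHR4. The component of TRINITY_DN9979_c0_g2 holds 1 other ID and that of TRINITY_DN326_c0_g1 holds 2.

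Of the members with a shorter length, TRINITY_DN210_c1_g2 had the second largest shift in ArPHR4, -1.32, with 1103 to 1372 counts per library. Its implied length was 3434, 3242 and 2824 bases in EV, 1888, 2824 and 1487 in ArPHR2, and 1504, 1024 and 1304 in ArPHR4. The ArPHR4 libraries lay far below EV, whereas the second ArPHR2 library reached the lowest EV library. Its level was 79.4 ± 1.75 CPM in EV, 78.1 ± 2.74 in ArPHR2 and 70.0 ± 3.72 in ArPHR4 leaves (SD, n = 3). The fall in ArPHR4 had an edgeR adjusted p of 4.9e-05, a description, since the rule limited this contrast. FPKM moved the other way, with means of 25.1 ± 3.04 in EV, 40.2 ± 11.6 in ArPHR2 and 57.1 ± 8.15 in ArPHR4 leaves (SD, n = 3). Its component holds 2 other IDs.

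TRINITY_DN7676_c0_g1 had the largest shift of any member toward a shorter length, -1.63 in ArPHR4 and -0.65 in ArPHR2. It implied 312, 476 and 466 bases in EV, 149, 340 and 355 in ArPHR2, and 199, 103 and 113 in ArPHR4. ArPHR4 did not overlap EV, but ArPHR2 did, and its first library lay within the ArPHR4 range. Counts were 176 to 274 per library. The ID is alone in its component.

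TRINITY_DN2707_c0_g1 and TRINITY_DN19209_c0_g1 were the members with the largest shortening in ArPHR2. The first implied 2460, 1952 and 2479 bases in EV, 1431, 897 and 1505 in ArPHR2, and 1384, 1154 and 799 in ArPHR4, with all construct libraries below all EV libraries. Its shift was -0.87 in ArPHR2 and -1.07 in ArPHR4, and its component holds 2 other IDs. TRINITY_DN19209_c0_g1 implied 3180, 3565 and 5074 bases in EV, 1703, 2044 and 2244 in ArPHR2, and 2146, 2815 and 3215 in ArPHR4. Here ArPHR2 was clear of EV, while the third ArPHR4 library passed the lowest EV library. The third EV library, with the longest value, had an FPKM of 5, the minimum of the rule. Without that library the shift in ArPHR2 was -0.76, compared with -0.96 with it.

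**Figure D3:**
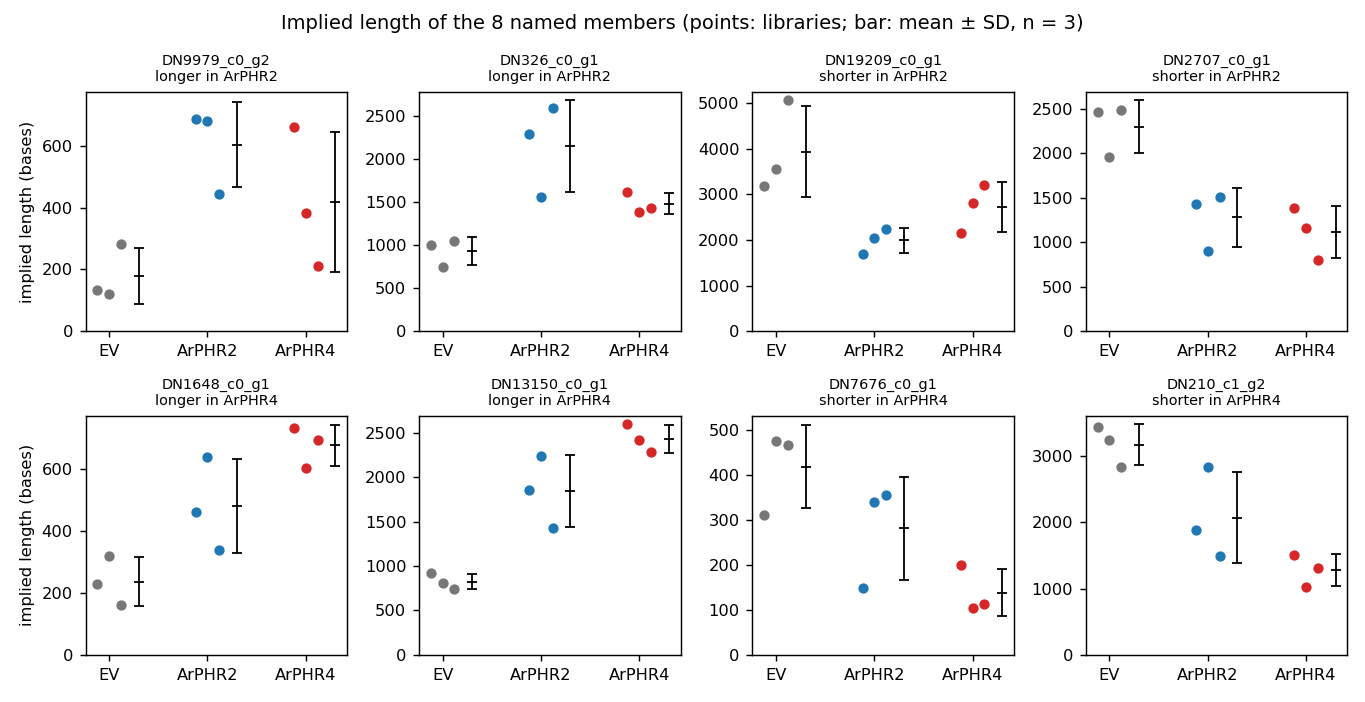
Implied length in bases of the 8 named members in every library (points), with the mean and SD of each group of 3 as a bar beside them, and a linear axis from 0. TRINITY_DN13150_c0_g1 went from 747 to 923 bases in EV to 2286 to 2597 in ArPHR4, and TRINITY_DN7676_c0_g1 from 312 to 476 bases to 103 to 199.

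The 8 IDs above were named by the size of their shift. The 6 IDs that follow were chosen for description after their values were seen, 4 of them for many reads or a tight spread. TRINITY_DN5932_c0_g1 had the highest CPM of all members in EV, with 5902 to 8768 counts per library. It implied 1254, 1252 and 1297 bases in EV, 931, 923 and 920 in ArPHR2, and 828, 881 and 811 in ArPHR4, without overlap between any of the 3 groups. Its shift was -0.45 in ArPHR2, short of the threshold, and -0.59 in ArPHR4. TRINITY_DN589_c0_g1, the member with the least spread among those shorter under both constructs, implied 2293, 2208 and 2227 bases in EV, 1602, 1631 and 1571 in ArPHR2, and 1537, 1559 and 1520 in ArPHR4. Mean lengths were 2243 ± 44.4 in EV, 1601 ± 30.2 in ArPHR2 and 1539 ± 19.6 in ArPHR4 leaves (SD, n = 3), and no groups overlapped.

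Among members longer under both constructs the least spread was that of TRINITY_DN12852_c0_g1. It implied 727, 735 and 719 bases in EV, 1049, 1043 and 1046 in ArPHR2, and 1060, 1000 and 1054 in ArPHR4. The construct groups overlapped each other and stood clear of EV. The component of this member holds 2 other IDs. TRINITY_DN6874_c0_g1, the longer member with the highest count (2179 to 3236 per library), implied 140, 128 and 136 bases in EV, 213, 187 and 193 in ArPHR2, and 200, 196 and 178 in ArPHR4. It too separated from EV in every construct library.

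The opposite case was TRINITY_DN3787_c0_g1, whose libraries disagreed most within a group. It implied 1376, 720 and 1438 bases in EV, 1560, 1573 and 592 in ArPHR2, and 279, 766 and 1522 in ArPHR4. Its shift of -0.71 in ArPHR4 lay within the spread of its own libraries, and all 3 groups overlapped. Its counts were 166 to 341 per library, so few reads stand behind these lengths.

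Of the 208 members, 82 had at least 1 group whose own libraries differed by 1.4-fold or more in implied length, as did 522 of the 11468 measured genes (4.55%). By group this held for 42 members in EV, 45 in ArPHR2 and 51 in ArPHR4. The median SD of L within a group was 0.12 in EV, 0.12 in ArPHR2 and 0.13 in ArPHR4 for members, and 0.024, 0.026 and 0.028 for all measured genes. A rule on mean differences also draws in genes with a wide spread, so this difference is not independent of the choice. Depth moved with it: the median over genes of the lowest count in any library was 220 in the 82 members and 569.5 in the other 126, and its part in the spread was not tested.

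For 177 members, the libraries of the construct group and EV did not overlap in a comparison that passed the threshold. In ArPHR4 against EV 144 of 164 members past the threshold had no overlap, and in ArPHR2 against EV 81 of 103. Over all measured genes, the same groups did not overlap in 66.2% for ArPHR4 and 60.7% for ArPHR2. Small shifts without overlap were therefore common among the 11468 measured genes, and what set the members apart, by the rule, was the size. The median shift over all measured genes was 0.036 in ArPHR2 and 0.054 in ArPHR4. Their median SD of L within a group was smaller, at 0.024 to 0.028. The part of this median shift in the shares without overlap was not tested. The 31 members outside the 177 rested on means of groups that overlapped.

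The rule was then repeated on 2 libraries per group, and the shift was read in the third, which had no part in it other than the minimum count and FPKM. With the libraries numbered 1 held out, 222 genes were chosen, with those numbered 2 held out 225, and with those numbered 3 held out 217. Between 167 and 169 of each set were also among the 208. In ArPHR4, the held-out library passed 1.4-fold in the chosen direction for 97 of 181 genes, 84 of 174 and 74 of 172, where 3.29%, 3.18% and 3.22% of all measured genes passed it in either direction. It moved in the chosen direction at all for 159, 153 and 148 of them. In ArPHR2 the counts past 1.4-fold were 45 of 110, 51 of 116 and 53 of 114. In either direction, 2.44%, 2.46% and 2.17% of all measured genes passed it. The chosen direction was kept by 98, 92 and 96 genes. For keeping a direction no share of all measured genes is given here. Their median shift over all libraries was above 0, at 0.036 in ArPHR2 and 0.054 in ArPHR4.

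Counted as positive in the chosen direction and negative against it, the median shift was smaller in the held-out libraries than in those that chose the genes. In ArPHR4 it fell from 0.60, 0.59 and 0.61 on the log2 scale in the choosing libraries, where it is positive by construction, to 0.51, 0.48 and 0.45 in the held-out one. In ArPHR2 it fell from 0.57, 0.62 and 0.62 to 0.46, 0.40 and 0.45. A held-out shift past 1.4-fold in the opposite direction occurred for 7, 10 and 10 genes in ArPHR4 and 5, 7 and 4 in ArPHR2. Where the choosing libraries lay within 0.2 log2 units of each other in both groups, 76 of 80, 73 of 75 and 71 of 76 genes kept their direction in ArPHR4, compared with 83 of 101, 80 of 99 and 77 of 96 where they lay further apart. In ArPHR2, 45 of 47, 43 of 44 and 35 of 38 kept it, and further apart 53 of 63, 49 of 72 and 61 of 76. Past 1.4-fold in the chosen direction the contrast was less even. In ArPHR4 there were 44 of 80, 45 of 75 and 38 of 76, and further apart 53 of 101, 39 of 99 and 36 of 96. In ArPHR2 there were 19 of 47, 26 of 44 and 20 of 38, and further apart 26 of 63, 25 of 72 and 33 of 76. With 1 held-out library per group there is no test of these shares.

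**Figure D4:**
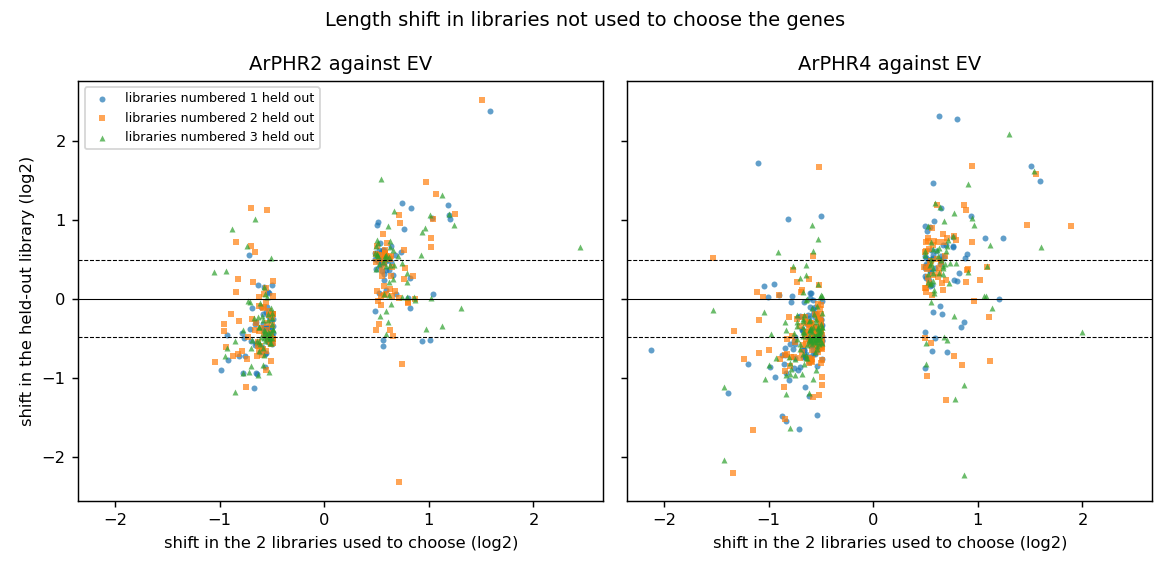
Length shift (log2) in the held-out library of each group against the held-out EV library, on the vertical axis, and in the 2 libraries per group that chose the gene, on the horizontal axis. Symbols mark which libraries were held out, and dashed lines mark 1.4-fold. Most points lie where both shifts have the same sign, with 148 to 159 of 172 to 181 genes keeping their direction in ArPHR4. For keeping a direction, no share of all measured genes is given beside these counts.

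The implied length of longer and of shorter members is given here as a description, since both classes were set by L relative to EV: a low value in EV favours the first class and a high one the second. The 75 longer members had a median of 630 bases over all libraries (quartiles 363 and 1199), and the 133 shorter members a median of 1359 (1051 and 1906). All measured genes had a median of 1238 (830 and 1788). The medians of both classes lay furthest apart in EV, at 487 and 1674 bases, and nearer in ArPHR4, at 728 and 1135. Of the longer members 36.0% were under 500 bases, of the shorter members 3.76%, and of all measured genes 8.97%. Lengths over 1000 bases were found in 26.7%, 79.7% and 64.3%.

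The median shift was larger in short genes, counted over all measured genes and not the members alone. Under 300 bases, where 325 genes were measured, it was 0.20 in ArPHR2 and 0.13 in ArPHR4 on the log2 scale. Over 2000 bases it was 0.019 and 0.044, and over all lengths 0.036 and 0.054. Of the 18 members under 300 bases, 16 were longer and 2 shorter. Of the 88 members between 1000 and 2000 bases, 11 were longer and 77 shorter. Members made up 5.54% of measured genes under 300 bases and 1.63% to 1.99% in each longer class. The part of this larger median shift of short genes in the longer members was not tested.

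**Figure D5:**
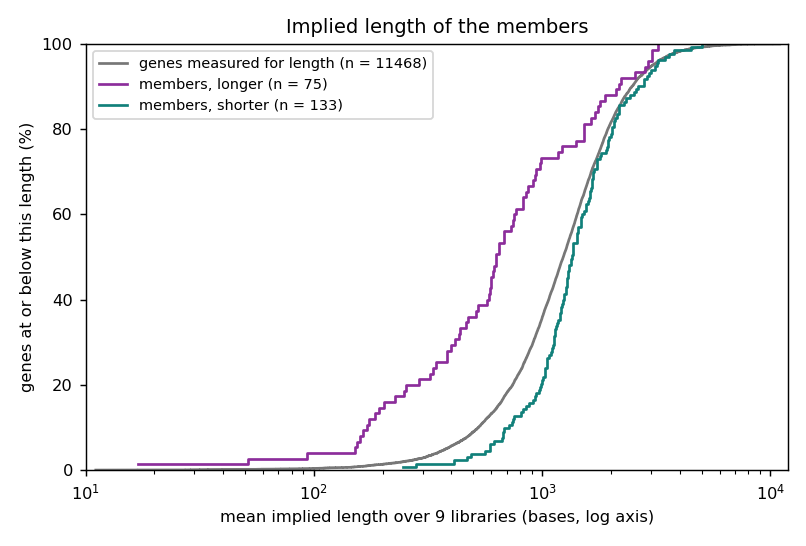
Cumulative share of genes (%) by mean implied length over the 9 libraries (bases, log axis), for all 11468 measured genes, the 75 longer members and the 133 shorter members. The curve of the longer members lies to the left, with a median of 630 bases, and that of the shorter members to the right at 1359 bases.

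The constructs were also compared with each other. Between ArPHR4 and ArPHR2, 26 members differed by at least 1.4-fold, 19 of them shorter and 7 longer in ArPHR4, where 0.445% of all measured genes did (0.288% shorter, 0.157% longer). The median difference of the members was -0.13 on the log2 scale, and 99 lay within 0.2 of 0. Libraries of both construct groups did not overlap for 71 members, against 33.3% of all measured genes. These are the libraries that chose the members, so the values are a description. TRINITY_DN10269_c0_g1, chosen for its difference, was the extreme on the longer side. It implied 857, 1142 and 777 bases in ArPHR2, 1352, 1837 and 1511 in ArPHR4, and 1161, 1000 and 915 in EV, so ArPHR4 alone stood clear of the others. The extreme on the shorter side was TRINITY_DN7676_c0_g1, described above, at -0.98.

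The levels of the members were tested with edgeR over all genes, with a call at an adjusted p under 0.05. In ArPHR4 against ArPHR2, a comparison that the rule did not use but bounds through both limits against EV, 54 members were called, 22 higher and 32 lower in ArPHR4 (16.3% and 16.2% of all genes tested). That is 26.0% of members, beside 32.5% of the 27275 genes tested and 38.3% of the 8213 measured genes that met the same limits on level. The members' log2 fold changes ran from -0.74 to 0.71, with a median of 0.0012 (0.00042 over all genes tested). With upper-quartile scaling of the libraries 60 members were called, 15 higher and 45 lower, beside 32.6% of all genes tested (13.5% higher, 19.1% lower). The count behind a member was lower than behind other genes within the limits (median lowest count 357.5 and 569), and its part in the smaller share was not tested.

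Against EV the rule held the levels of members within 1.5-fold, and many small changes inside that limit still passed the test. In ArPHR2 86 members were called, 27 higher and 59 lower, where 44.3% of all genes tested were (22.6% higher, 21.7% lower). In ArPHR4 104 were called, 30 higher and 74 lower, where 52% were (26.1% higher, 25.9% lower). More lower than higher calls were also found among all 8213 measured genes within the same limits, at 34.9% and 16.7% in ArPHR2 and 36.4% and 19.2% in ArPHR4. Nothing is read from these counts. The p-values of single members against EV are a description as well, because the rule limited the same contrasts in the same libraries. TRINITY_DN5932_c0_g1 fell in both groups, from 525 ± 5.94 CPM in EV to 416 ± 3.65 in ArPHR2 and 365 ± 7.69 in ArPHR4 leaves (SD, n = 3), log2 fold changes of -0.40 ± 0.036 and -0.62 ± 0.036 (SE, edgeR adjusted p = 3.51e-11 and 5.32e-16). For TRINITY_DN13150_c0_g1 the edgeR adjusted p was 0.418 in ArPHR2 and 0.289 in ArPHR4. Members were chosen for a level near EV, so these values do not show that its level was unchanged.

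The unit decided how a member read. FPKM left the 1.5-fold range around EV for 57 members in ArPHR2 (37 above, 20 below) and 86 in ArPHR4 (64 above, 22 below), although the CPM of all 208 stayed inside it. Among all 8213 measured genes within the limits on level this held for 3.24% and 5.1%. It follows from the arithmetic, since a shorter implied length raises FPKM at an unchanged count. With the implied length of each gene and library as an offset, edgeR could be run on the 11468 measured genes alone, where the calls without it covered 27275. In ArPHR2 against EV it called 118 members, 74 higher and 44 lower, beside 59.6% of the measured genes (28.3% higher, 31.4% lower). Of the 86 called without the offset, 44 were among them. In ArPHR4 against EV it called 142, 98 higher and 44 lower, beside 64.5% (31% higher, 33.5% lower), and 70 of the earlier 104 were among them. In ArPHR4 against ArPHR2 it called 65, 45 higher and 20 lower, beside 41.4% (19.7% higher, 21.7% lower), with 26 of the earlier 54. The length values that chose the members enter this fit, so nothing is read from its counts. For TRINITY_DN5932_c0_g1, the CPM fell as above while FPKM was 411 ± 4.10 in EV, 449 ± 1.32 in ArPHR2 and 445 ± 19.4 in ArPHR4 leaves (SD, n = 3). Mean FPKM was thus above EV where CPM was below it.

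Each member lay in an assembly component of its own. IDs of one component carry the same name up to the final gene number and can share reads. Of the 208 members, 68 (32.7%) had other IDs in their component, compared with 34.2% of all measured genes, and no component held more than 1 member. In 3 larger read clusters of the assembly, 7 members lay in different components of the same cluster. The components held 94 other IDs, of which 59 were tested for level. Of these 59, 25 were called in ArPHR2 against EV (13 higher, 12 lower), 35 in ArPHR4 against EV (12 higher, 23 lower) and 16 in ArPHR4 against ArPHR2 (3 higher, 13 lower). As shares these are 42.4%, 59.3% and 27.1%, and over all genes tested 44.3%, 52% and 32.5%. Of the 94, 20 were measured for length and 0 passed the length threshold, where 2.64% of all measured genes did. That share includes the members, which could not be among the 94, so nothing is read from the 0.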

How the data were processed

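Per the file headers, the authors deposited a count and an FPKM for each assembled gene and library. For aligner, counter and strand setting, the labels and headers state nothing. These deposited counts are whole numbers and may be rounded estimates. Columns were matched to samples by name, and 0 per-library columns of the expression table were left out. A table of pairwise values between libraries was not used. Members and lists were chosen with earlier results of these data known. L and CPM were computed with pandas 2.3.3 in Python 3.11.15. Levels were tested in R 4.3.3 with edgeR 4.0.16 (TMM scaling, quasi-likelihood, 3 group means, 6 residual degrees of freedom, Benjamini-Hochberg over 27275 genes that passed its expression filter). DESeq2 1.42.0 was an alternative. Each SE was obtained by dividing the log2 fold change by the root of its F statistic. Both steps were tested on simulated data. For length, every simulated gene had an SD of L of 0.033, as in the median over all measured genes. The median over members was 0.15, so genes with a wide spread were not covered. Named IDs are the 2 longest and 2 shortest shifts in each comparison against EV, and others are marked where described. Equal library numbers did not pair samples.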

Additional observations from a re-analysis of the deposited data

Results flagged for a closer look

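For 7 of the 14 members described by ID, the level differed between ArPHR4 and ArPHR2 leaves by the direct edgeR test, which called 32.5% of all genes tested and 46.8% of those measured for length. Values are log2 fold changes of ArPHR4 over ArPHR2 with their SE. TRINITY_DN2707_c0_g1 was lower in ArPHR4, at -0.185 ± 0.055 (edgeR adjusted p = 0.00928). TRINITY_DN7676_c0_g1 was higher in ArPHR4, at 0.419 ± 0.128 (edgeR adjusted p = 0.0108). TRINITY_DN210_c1_g2 was lower in ArPHR4, at -0.190 ± 0.054 (edgeR adjusted p = 0.00619). TRINITY_DN5932_c0_g1 was lower in ArPHR4, at -0.220 ± 0.036 (edgeR adjusted p = 1.02e-05). TRINITY_DN6874_c0_g1 was higher in ArPHR4, at 0.350 ± 0.054 (edgeR adjusted p = 3.94e-06). TRINITY_DN589_c0_g1 was lower in ArPHR4, at -0.266 ± 0.042 (edgeR adjusted p = 6.73e-06). TRINITY_DN3787_c0_g1 was higher in ArPHR4, at 0.373 ± 0.133 (edgeR adjusted p = 0.0304).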

How the results depend on the processing

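The number of members was 208 and ranged from 204 to 223 when each library was left out in turn. The genes changed more than the number: 168 to 194 of the 208 were chosen again, fewest without EV library 2. It was 398 with a length threshold of 1.3-fold, 91 with 1.5-fold, 124 with a narrower limit on level and, as an alternative added after seeing the data, 126 when the libraries of each group had to lie within the length threshold of each other. Other settings gave 155 to 263. Members called by level numbered 42 to 51 (ArPHR4 against ArPHR2), 71 to 77 (ArPHR2 against EV) and 88 to 98 (ArPHR4 against EV) with 1 library left out, beside 26.4% to 28.3%, 37.0% to 38.9% and 44.5% to 46.5% of all genes tested, and 48 to 65, 78 to 118 and 94 to 142 under the other settings, beside 12.01% to 41.4%, 15.97% to 59.6% and 19.3% to 64.5% of the genes tested there, whose number varied. Same-numbered libraries did not deviate together (correlations of 0.011 to 0.059), and with the replicate number as a block 56, 85 and 104 members were called, against 54, 86 and 104 without it. No direction of a named length shift reversed in 56 repeats. The named shifts were chosen as the largest in these same libraries, so a reversal was unlikely from the start and nothing is read from this.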
